A study of Mus musculus with 36 samples.

Results

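The Hox genes encode homeodomain transcription factors and lie in 4 clusters, HoxA, HoxB, HoxC and HoxD. They were taken as every gene of the deposited expression table whose symbol is Hoxa, Hoxb, Hoxc or Hoxd followed by a number, which gave 39 of the 52505 genes in the table. HoxA held 11 of them, HoxB 10, HoxC 9 and HoxD 9. Values are the authors' FPKM, which divide a gene's fragments by its length in kilobases and by the depth of the library.

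The cells were 3T3-L1, a mouse embryo fibroblast line that forms fat cells when given an adipogenic cocktail. Total RNA was sequenced in 12 libraries, 3 from each of 4 groups: wild type cells at day 0 and at day 2, and cells whose genotype label is zfp217-/- at day 0 and at day 2 (called WT-labelled and KO-labelled here). The cocktail held dexamethasone, isobutyl-methylxanthine, insulin and indomethacin, and all 4 groups grew in the same serum medium. Per the labels' time points, day 2 libraries had the cocktail for 2 days and day 0 libraries for 0 days. How Zfp217, a zinc finger protein gene, was disrupted, and whether the KO-labelled cells were 1 clone, is not given in the sources used here. Nor do the sources say whether replicate libraries came from separate cultures, so p-values measure the spread between these libraries only, which may be technical. A comparison of KO-labelled with WT-labelled cells is therefore also a comparison of a pair of cell populations that may differ in more than 1 gene.

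In vertebrates the order of the genes along a Hox cluster follows the order of their expression along the body axis. Members with low numbers are used towards the head and those with high numbers towards the tail and the tips of the limbs. Members with the same number in different clusters are paralogues, descended from 1 ancestral gene. Cells taken from different places keep different Hox combinations in culture, and fibroblasts and preadipocytes of different depots are known to differ in them. Active and silent parts of a cluster are held apart by Trithorax and Polycomb proteins, and Hox proteins bind DNA together with TALE homeodomain cofactors such as Pbx and Meis. Here numbers 1 to 3 are called anterior, 4 to 8 central and 9 to 13 posterior.

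The sequences printed here lie in front of some of the genes described below. Whether they bear on the expression pattern was not tested. RefSeq windows (GRCm38.p6) of the 250 bases before the annotated start were at hand for 22 of the 39 genes. The first set belongs to the 4 tested HoxD genes. Their windows lie on the plus strand at Hoxd9 chr2:74697513-74697762, Hoxd8 chr2:74704365-74704614, Hoxd4 chr2:74721728-74721977 and Hoxd3 chr2:74711743-74711992. Capitals mark the nuclear receptor half-site AGGTCA on either strand (TGACCT on the other).
Hoxd9: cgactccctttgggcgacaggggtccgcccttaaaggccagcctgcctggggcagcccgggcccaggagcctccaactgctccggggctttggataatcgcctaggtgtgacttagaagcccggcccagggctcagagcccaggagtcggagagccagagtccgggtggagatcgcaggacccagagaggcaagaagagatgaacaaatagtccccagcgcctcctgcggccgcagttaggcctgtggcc
Hoxd8: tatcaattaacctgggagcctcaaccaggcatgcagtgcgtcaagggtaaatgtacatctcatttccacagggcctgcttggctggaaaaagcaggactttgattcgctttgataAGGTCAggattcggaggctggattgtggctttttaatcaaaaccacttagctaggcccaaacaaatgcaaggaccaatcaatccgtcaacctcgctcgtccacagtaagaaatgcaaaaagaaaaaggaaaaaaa
Hoxd4: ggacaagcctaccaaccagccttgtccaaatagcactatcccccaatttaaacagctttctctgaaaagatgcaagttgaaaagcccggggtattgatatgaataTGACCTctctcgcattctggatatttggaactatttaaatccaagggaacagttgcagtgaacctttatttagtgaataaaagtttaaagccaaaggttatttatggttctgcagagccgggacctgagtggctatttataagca
Hoxd3: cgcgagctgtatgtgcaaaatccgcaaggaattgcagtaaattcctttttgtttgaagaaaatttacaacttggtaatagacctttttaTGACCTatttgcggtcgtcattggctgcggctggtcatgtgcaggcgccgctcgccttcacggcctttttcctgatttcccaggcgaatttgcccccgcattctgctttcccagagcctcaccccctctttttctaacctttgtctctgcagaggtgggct

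The half-site was present in 3 of these 4 windows, 135 bases before the start of Hoxd8, 145 before that of Hoxd4 and 161 before that of Hoxd3, counted from the first base of the match. It was present in 6 of the 22 Hox windows, the others being Hoxb4 and 2 nearly silent genes, Hoxd10 (at most 4 reads in any library) and Hoxc4 (at most 3), and in 14% of all 32851 promoter windows of the same length. Such a match is a run of letters, and no binding was measured. The Hoxd9 window held none of the 6 motifs searched and was the richest of the 4 in CpG, with 13 against 6 for Hoxd8, 3 for Hoxd4 and 12 for Hoxd3. The median of all windows was 6.

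The second set shows Hoxa2, the HoxA gene with the largest fall in WT-labelled cells, and the neighbours Hoxa7 and Hoxa9, between which HoxA expression ended. They lie on the minus strand, at Hoxa2 chr6:52164832-52165081, Hoxa7 chr6:52218574-52218823 and Hoxa9 chr6:52227371-52227620. Capitals mark the Pbx-Hox composite TGATTNAT and the Meis motif TGACAG, on either strand.
Hoxa2: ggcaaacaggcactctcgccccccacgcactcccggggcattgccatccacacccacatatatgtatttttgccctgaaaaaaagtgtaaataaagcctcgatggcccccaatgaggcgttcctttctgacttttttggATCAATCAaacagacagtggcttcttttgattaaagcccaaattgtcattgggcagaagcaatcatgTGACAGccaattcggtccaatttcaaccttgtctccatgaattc
Hoxa7: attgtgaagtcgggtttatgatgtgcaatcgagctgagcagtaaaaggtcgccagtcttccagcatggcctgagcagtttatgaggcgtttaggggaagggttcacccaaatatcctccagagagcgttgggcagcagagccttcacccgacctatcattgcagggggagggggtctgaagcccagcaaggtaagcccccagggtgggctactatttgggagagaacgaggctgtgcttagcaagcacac
Hoxa9: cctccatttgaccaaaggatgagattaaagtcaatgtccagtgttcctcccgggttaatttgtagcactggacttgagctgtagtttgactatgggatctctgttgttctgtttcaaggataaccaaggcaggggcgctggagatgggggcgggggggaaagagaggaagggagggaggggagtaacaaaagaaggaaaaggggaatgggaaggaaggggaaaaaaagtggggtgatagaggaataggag

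Hoxa2 was the only Hox gene among the 22 whose window held both a Pbx-Hox composite (111 bases before the start) and a Meis motif (44 bases before it). The composite was in 2.82% and the Meis motif in 15.9% of all windows. Hoxa7 and Hoxa9 held none of the motifs searched, and their CpG numbers were 7 and 3. Motifs of 3 further factors that the cocktail can act through were searched on both strands. The cyclic AMP response element TGACGTCA was in 1.55% of all windows, the glucocorticoid response element (AGAACA and TGTTCT with 3 bases between them) in 0.00913% and the C/EBP palindrome TTGCGCAA in 0.164%. None of the 22 Hox windows held any of these 3, which says only that these letters are not in these windows.

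Libraries held between 18075127 and 23117459 reads, recovered from the steps in the FPKM values. Zfp217 itself was measured at 21.7, 21.9 and 22.3 FPKM in WT-labelled cells at day 0 and at 25.2, 25.8 and 26.9 in KO-labelled cells. At day 2 the values were 14.6, 15.3 and 15.3 against 21.7, 23.4 and 22.7. Its message was thus not lower in the KO-labelled libraries, and a message level does not check the label of an edited gene. The 8 fibroblast and preadipocyte markers were all detected. Their summed level ran from 9538 to 9826 FPKM in WT-labelled libraries at day 0 and from 1057 to 1080 at day 2. In KO-labelled libraries it ran from 20045 to 20682 and from 6823 to 6984. The 6 adipocyte markers summed to 65.0 to 70.0 and 6678 to 6859 FPKM in WT-labelled cells at the 2 days and to 193 to 203 and 321 to 334 in KO-labelled cells. The sums hide members that differ. At day 0, 5 fibroblast markers were higher and 2 lower in KO-labelled cells, beside 38.3% and 44.2% of all genes tested. Of the adipocyte markers Lpl was higher there (log2 1.75), Pparg was lower (-1.55) and the others missed the threshold. Markers of endothelium, epithelium and skeletal muscle summed to at most 1.12 FPKM in any library, those of neurons to at most 4.53 and those of immune cells to at most 16.6. WT-labelled day 0 replicate 3 stood apart in the mitochondrial rRNA mt-Rnr1, at 264 FPKM against 7.01 and 5.87 in the other two of its group, beside 379 to 396 in KO-labelled cells at day 0 and 13.5 to 19.9 at day 2. The part of this in the Hox values was not tested, beyond the fits without that library given below.

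**Figure D1:**
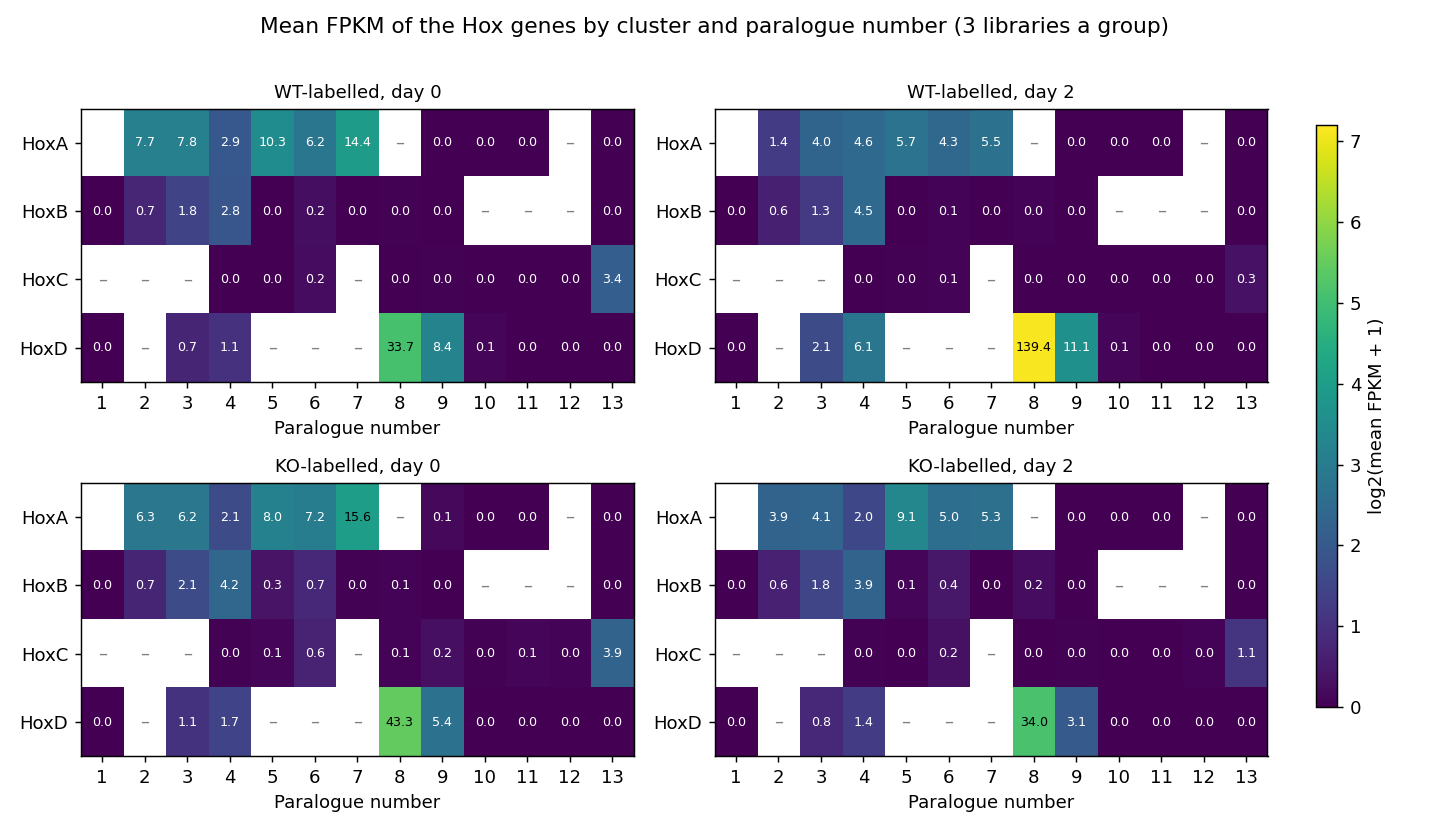
Mean FPKM of the Hox genes in each group, with clusters as rows and paralogue numbers as columns; colour is log2(mean FPKM + 1), the printed value is the mean of 3 libraries, and a dash marks a position with no gene and a blank one is not shown. HoxA is filled from 2 to 7, HoxD at 3, 4, 8 and 9, HoxB mainly at 2 to 4 and HoxC mainly at 13, and Hoxd8 in WT-labelled cells at day 2 is the highest value.

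All 4 groups used mainly the same stretches of the clusters. HoxA was expressed from Hoxa2 to Hoxa7 and not beyond Hoxa7, HoxB mainly from Hoxb2 to Hoxb4, HoxD at Hoxd3, Hoxd4, Hoxd8 and Hoxd9, and HoxC mainly at its last gene, Hoxc13. The 8 other HoxC genes summed to 0.209 of 3.65 FPKM of the cluster in WT-labelled cells at day 0 and to 0.0850 of 0.367 at day 2. In KO-labelled cells they summed to 1.16 of 5.05 FPKM and 0.375 of 1.5. The map of means by cluster and paralogue number shows this pattern, in which most of the message came from central members. At day 0 in WT-labelled cells central members made up 69.4% ± 0.539 (SD, n = 3) of the summed Hox FPKM, anterior ones 19.1% ± 0.327 and posterior ones 11.5% ± 0.388.

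Of the 39 genes 13 averaged 1 FPKM or more across all 12 libraries, the minimum for a test. They were Hoxa2 to Hoxa7, Hoxb3, Hoxb4, Hoxc13, Hoxd3, Hoxd4, Hoxd8 and Hoxd9, and each was above 0 in all 12 libraries. Hoxd3 was just inside the minimum (mean 1.15 FPKM), reaching 2.18 FPKM in a WT-labelled library at day 2, and it passed largely through that group. Hoxb2 was outside the minimum (mean 0.627 FPKM), with its highest library at 0.937 FPKM. A further 6 genes were at 0 in all 12 libraries: Hoxa10, Hoxa11, Hoxa13, Hoxb1, Hoxb13 and Hoxd12. Their counted lengths could not be recovered, so the FPKM that 0 reads allow is not known. The other 20 of the 26 untested genes were low but above 0 somewhere. Of these 20, 15 had fewer than 50 reads in all 12 libraries together.

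Expression along HoxA stopped between neighbouring genes. Hoxa7, a central gene known for its part in patterning the trunk vertebrae, lies on chromosome 6 at 52215623 to 52218573 (GRCm38.p6) and had 14.4, 14.4 and 14.4 FPKM in WT-labelled cells at day 0. Hoxa9, whose RefSeq span begins 4.523 kb away, had at most 5 reads in any library and 0 reads in 7 of 12 libraries. The level fell from one gene to the next in every group, since Hoxa7 was never below 5.10 FPKM and Hoxa9 never above 0.155.

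HoxD had an edge of the same kind. Hoxd9, at chromosome 2 from 74697763 to 74700208, was at 8.80, 8.14 and 8.17 FPKM in WT-labelled cells at day 0. Hoxd10, 2.656 kb from it, had 3, 2 and 3 reads in those libraries, and 3, 4 and 1 at day 2. In all 6 KO-labelled libraries Hoxd10 had 0 reads. A count of 0 allows up to 3 reads (0.0914 FPKM in the shallowest library), so a single library does not tell the sets apart. Summed over the 3 libraries of a group, Hoxd10 had 8 and 8 reads in WT-labelled cells at the 2 days and 0 and 0 in KO-labelled cells. This difference was not tested. Hoxd11 and Hoxd13 had at most 2 reads in any library. At the other end of the cluster Hoxd1 had 1 read in 1 library, while Hoxd3 was expressed. For genes with so few reads the recovered numbers have little to check them, and a common factor of all a gene's read numbers would be lost.

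Most HoxC message came from the far end of the cluster. Hoxc13, best known from hair and nail formation, lies on chromosome 15 at 102921131 to 102928814 and was at 3.14, 3.35 and 3.84 FPKM in WT-labelled cells at day 0. Its neighbour Hoxc12, 8.011 kb away, had at most 2 reads in any library. The 8 other HoxC genes together had 5, 3 and 6 reads in those libraries.

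The order of the levels at day 0 was much the same in both genotypes, with Hoxd8 first and Hoxa7 second. In WT-labelled cells Hoxd8 was followed by Hoxa7 at 14.4, Hoxa5 at 10.3 and Hoxd9 at 8.37 FPKM. Hoxa3 and Hoxa2, at 7.80 ± 0.207 and 7.74 ± 0.101 FPKM (SD, n = 3), did not differ beyond their spread, and neither did Hoxa4 and Hoxb4, at 2.92 ± 0.111 and 2.82 ± 0.0188. In KO-labelled cells the neighbours Hoxa2 and Hoxa3, at 6.28 ± 0.413 and 6.23 ± 0.398 FPKM, likewise overlapped, as did Hoxa4 and Hoxb3, at 2.14 ± 0.143 and 2.1 ± 0.183.

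**Figure D2:**
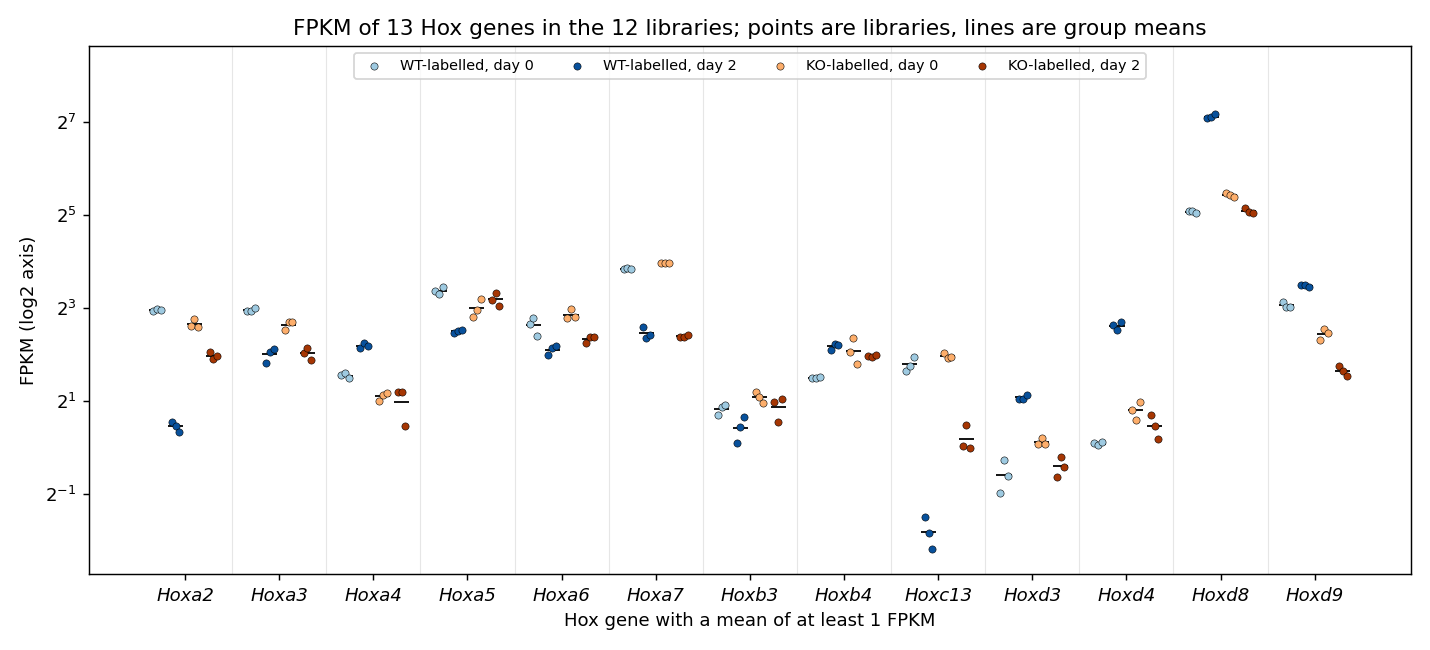
FPKM (log2 axis) of the 13 tested Hox genes in each of the 12 libraries; points are libraries, coloured by group, and black lines are group means. Hoxd8, Hoxd4 and Hoxd3 are highest in WT-labelled cells at day 2, and Hoxa2 and Hoxc13 are lowest there.

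The first comparison asked how the WT-labelled cells' Hox pattern moved over the 2 days of the cocktail. Hoxd4, Hoxd8 and Hoxd9 rose and most of HoxA fell. All 13 tested genes passed limma's test on log2(FPKM + 1) after Benjamini-Hochberg adjustment, 6 higher and 7 lower. Of all 12961 genes tested 80.7% passed, 34.2% higher and 46.5% lower, so the count of calls is close to what genes at large did. The day 0 and day 2 libraries did not overlap for any of the 13. The share of all genes tested without overlap is not given here, so this sets no Hox gene apart.

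Among the tested HoxD genes the largest rise was that of Hoxd8 on the log2(FPKM + 1) scale and that of Hoxd4 in FPKM (5.83-fold). Hoxd8, a central gene and the most abundant Hox message here (chromosome 2, 74704615 to 74707933), went from 33.8, 34.2 and 33.1 FPKM to 136, 138 and 144. That was a rise of 4.14-fold, or 2.02 on the log2(FPKM + 1) scale (SE 0.04, adjusted p = 1.19e-13, limma). Hoxd4 (chromosome 2, 74721978 to 74729160) went from 1.06, 1.03 and 1.07 to 6.16, 5.77 and 6.52 FPKM, a log2 rise of 1.80 (SE 0.09, adjusted p = 1.93e-09, limma). These are the genes whose windows with a half-site are printed above, together with Hoxd3 (chromosome 2, 74711993 to 74748271), which rose from 0.504, 0.829 and 0.655 to 2.05, 2.07 and 2.18 FPKM (log2 0.90, SE 0.09). Hoxd3 reached the minimum for a test through these high values, so its rise is a description and no support for a rise across the cluster. Hoxd9 rose less, from 8.80, 8.14 and 8.17 to 11.3, 11.2 and 10.9 FPKM (log2 0.37, SE 0.06).

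HoxA moved the other way in 5 of its 6 tested genes. Hoxa2, the most anterior of them and known for patterning the hindbrain and the second branchial arch (chromosome 6, 52162417 to 52164831), fell from 7.63, 7.82 and 7.77 to 1.46, 1.38 and 1.26 FPKM. The log2 change was -1.89 (SE 0.06, adjusted p = 2.62e-11, limma), with no overlap between the days. Hoxa7 fell from 14.4 in each library to 6.0, 5.10 and 5.35 FPKM (log2 -1.25, SE 0.05). Hoxa3, known for its part in forming the thymus and parathyroid, fell from 7.66, 7.70 and 8.04 to 3.51, 4.12 and 4.36 FPKM. Hoxa5, a gene of lung and cervical patterning, and Hoxa6 fell too, by 0.77 and 0.43 on the log2 scale. Hoxa4, which lies between Hoxa3 and Hoxa5, was the exception and rose from 2.92, 3.03 and 2.80 to 4.40, 4.76 and 4.52 FPKM (log2 0.50, SE 0.11, adjusted p = 0.00123, limma).

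The tested gene of HoxC and both of HoxB completed the set. Hoxc13 fell 12.2-fold, from 3.14, 3.35 and 3.84 to 0.352, 0.278 and 0.217 FPKM (log2 -1.79, SE 0.09). Hoxb4 (chromosome 11, 96318267 to 96321638), a gene also known from blood stem cells, rose from 2.81, 2.81 and 2.84 to 4.30, 4.65 and 4.63 FPKM (log2 0.53, SE 0.09). Hoxb3 fell from 1.62, 1.83 and 1.88 to 1.06, 1.36 and 1.57 FPKM, a small change (log2 -0.26, adjusted p = 0.0409, limma). That call was lost under TPM scaling (adjusted p = 0.0524), under median-of-ratios scaling (0.105) and with no filter (0.104), all by limma. It was also lost without any 1 of 5 libraries: WT-labelled day 0 replicate 2 or 3 (adjusted p = 0.0921 and 0.108), WT-labelled day 2 replicate 1 or 2 (0.168 and 0.0676) and KO-labelled day 0 replicate 2 (0.0523), all by limma.

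The composition of the Hox message changed with these moves. HoxA went from 48.7% ± 0.125 to 13.4% ± 0.190 of the summed Hox FPKM (SD, n = 3), and HoxD from 42.4% ± 0.473 to 83.0% ± 0.268. Hoxd8 alone went from 32.6% ± 0.389 to 72.8% ± 0.450. With Hoxd8 left out the sum of the other 38 genes fell from 69.8 ± 0.139 to 52.0 ± 0.379 FPKM, and the posterior share of it went from 17.1% ± 0.495 to 22.1% ± 0.816. In RNA from whole cultures fewer cells of a type and less RNA per cell cannot be told apart. The adipocyte and fibroblast markers given above moved with this comparison, and their part in the Hox changes was not tested.

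In KO-labelled cells most of the tested Hox genes fell over the same 2 days. Of the 13 genes 8 were lower and 0 higher, beside 72.7% of all genes called, 33.9% higher and 38.8% lower (limma). At an unadjusted p under 0.05 the count of higher genes was also 0, and voom on the recovered reads gave 0 as well. Under median-of-ratios scaling 1 gene, Hoxa5, was called higher (log2 0.22, adjusted p = 0.0344, limma). Hoxa7 had the largest fall on the log2(FPKM + 1) scale, which understates changes of low genes, from 15.5, 15.6 and 15.5 to 5.20, 5.22 and 5.35 FPKM (log2 -1.40, SE 0.05, adjusted p = 1.12e-10, limma). Hoxc13 fell from 4.07, 3.78 and 3.82 to 1.02, 1.39 and 0.981 FPKM (log2 -1.20, SE 0.09).

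The HoxD genes of KO-labelled cells stayed near their starting levels or fell. Hoxd8 went from 44.8, 43.5 and 41.6 to 35.4, 33.6 and 32.9 FPKM (log2 -0.34, SE 0.04), with the days not overlapping. Hoxd9 went from 4.95, 5.88 and 5.46 to 3.36, 3.10 and 2.89 FPKM (log2 -0.64, SE 0.06). Hoxd3 fell by 0.25 on the log2 scale (adjusted p = 0.0219, limma). That call was lost without KO-labelled day 0 replicate 2 (0.0648) or day 2 replicate 1 (0.0789), and with no filter (0.0524), all by limma. Hoxd4 changed by -0.21 with overlapping libraries (adjusted p = 0.0519, limma). It passed without KO-labelled day 0 replicate 2 (adjusted p = 0.0231) or day 2 replicate 1 (0.0171), both by limma.

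In HoxA, Hoxa2, Hoxa3 and Hoxa6 fell by 0.56, 0.51 and 0.45 on the log2 scale. Hoxa5 was at 7.02, 7.80 and 9.18 FPKM before and 8.99, 10.0 and 8.20 after (log2 0.17, adjusted p = 0.102, limma). It passed as higher without KO-labelled day 0 replicate 3 (adjusted p = 0.0119) or day 2 replicate 3 (0.0418). Hoxa4, Hoxb3 and Hoxb4 missed the threshold with log2 changes of -0.09, -0.14 and -0.08, and their libraries overlapped between the days. Hoxb4 passed as lower without KO-labelled day 0 replicate 3 (log2 -0.19, adjusted p = 0.0483, limma). It turned to 0.039 without replicate 2 of that group, and Hoxa4 to 0.066 without KO-labelled day 2 replicate 3.

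**Figure D3:**
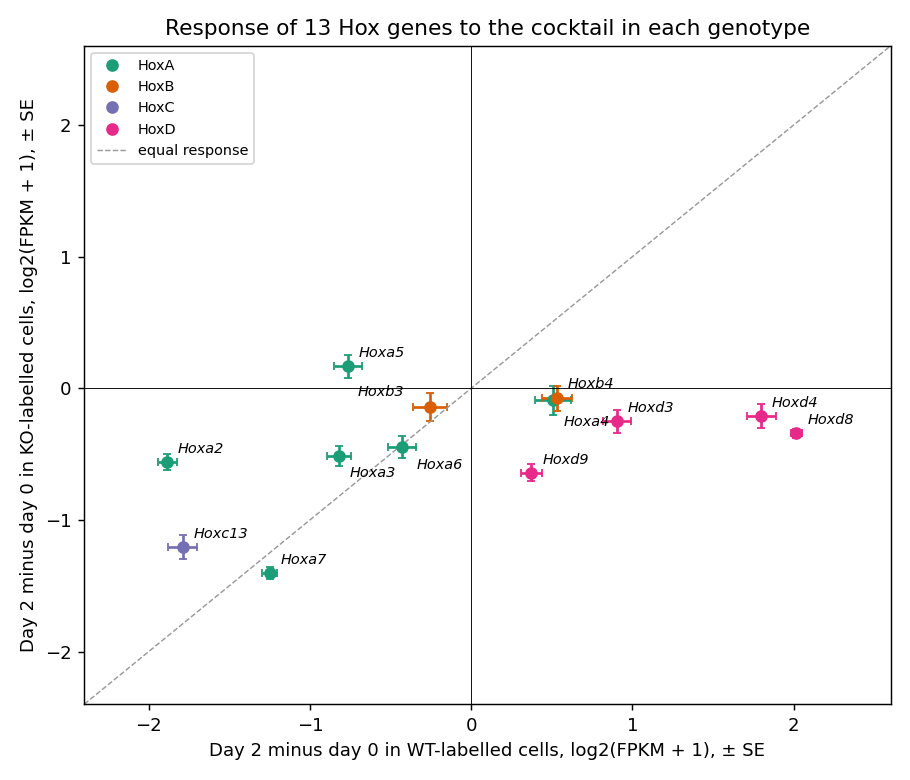
Change from day 0 to day 2 of the 13 tested Hox genes, in WT-labelled cells (x axis) and KO-labelled cells (y axis), on the log2(FPKM + 1) scale with standard errors; colours mark clusters and the dashed line marks equal responses. The 4 HoxD genes lie right of 0 and below the line, Hoxa7 and Hoxa6 lie next to the line, and Hoxa2 lies above it.

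The difference between the 2 responses was itself tested, as an interaction term. It passed for 10 of the 13 genes, 4 higher and 6 lower in KO-labelled cells, beside 73.8% of all genes tested (40.8% higher, 33.0% lower). A difference of at least 1 on the log2 scale was called in 5 Hox genes and in 21.5% of all genes. The plot of the 2 responses shows the HoxD genes apart from the line of equal responses. The difference, KO-labelled minus WT-labelled change, was -2.36 on the log2 scale for Hoxd8 (SE 0.05, adjusted p = 2.38e-12, limma). It was -2.01 for Hoxd4 (SE 0.13), -1.16 for Hoxd3 (SE 0.12) and -1.02 for Hoxd9 (SE 0.09). The median of all genes tested was 0.06. The value of Hoxd3 is again a description, since its high WT-labelled day 2 libraries brought it past the minimum.

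HoxA was mixed in the interaction. Hoxa2 fell less in KO-labelled cells (1.32, SE 0.08, adjusted p = 3.67e-08, limma). Hoxa5, which fell in WT-labelled cells and missed the threshold in KO-labelled ones, had 0.93 (SE 0.12), while Hoxa4 had -0.60 (SE 0.16). Hoxa6 and Hoxa7 fell in both genotypes, and the difference between their falls was -0.02 (SE 0.12, adjusted p = 0.894, limma) and -0.15 (SE 0.07, adjusted p = 0.0591, limma). Hoxa6 turned positive, to 0.07 at most, in 4 of the fits without 1 library. Hoxa7 passed without WT-labelled day 2 replicate 2 (adjusted p = 0.0163, limma). Hoxa3 had 0.31 (SE 0.11, adjusted p = 0.0224, limma), and lost the call without WT-labelled day 2 replicate 1 (0.0511), KO-labelled day 0 replicate 1 (0.0564) or KO-labelled day 2 replicate 2 (0.0557). Outside HoxA, Hoxc13 had 0.59 (SE 0.13), Hoxb4 -0.61 (SE 0.13) and Hoxb3 0.12 (SE 0.15, adjusted p = 0.494, limma).

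**Figure D4:**
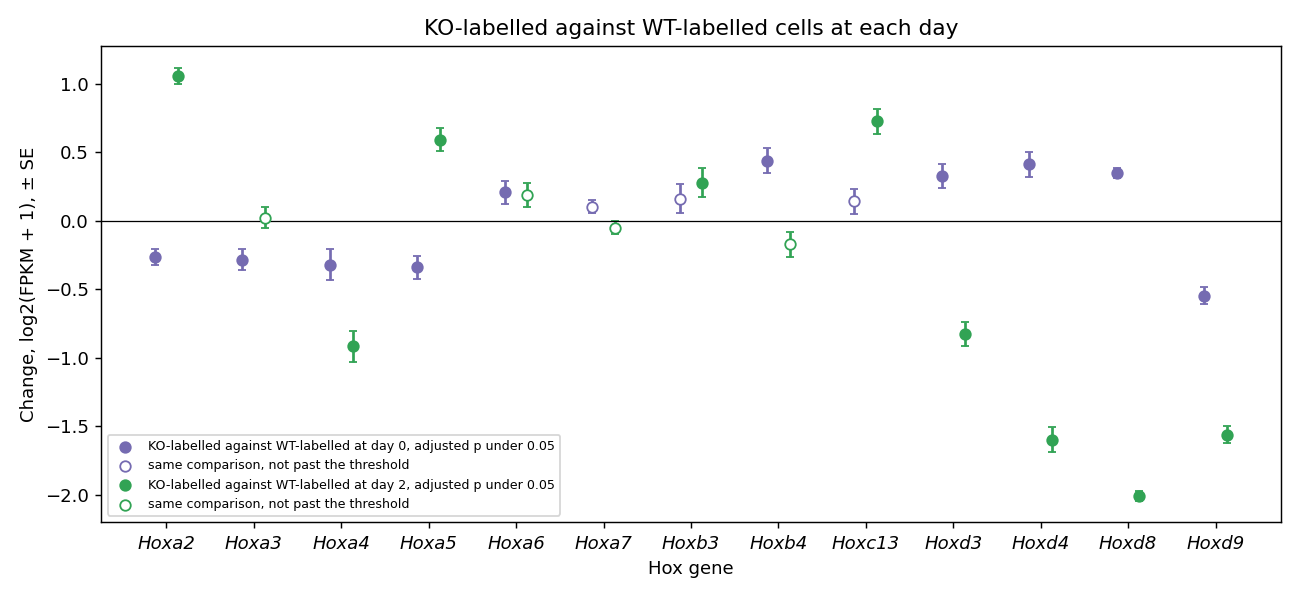
Change of KO-labelled against WT-labelled cells at day 0 and at day 2 for the 13 tested Hox genes, on the log2(FPKM + 1) scale with standard errors; filled points passed an adjusted p of 0.05. Day 0 changes lie between -0.55 and 0.44, and at day 2 Hoxd8, Hoxd4 and Hoxd9 lie below -1.5 and Hoxa2 above 1.

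Before the cocktail no tested Hox gene differed 2-fold between the genotypes. Some untested low members, given below, differed by more. At day 0, 10 of 13 genes passed, 5 higher and 5 lower in KO-labelled cells, beside 82.4% of all genes tested (38.3% higher, 44.2% lower). None reached a 2-fold difference on the log2(FPKM + 1) scale, which 22.3% of all genes did. Hoxd9 had the largest difference on that scale, where lower genes such as Hoxd3 and Hoxd4 count for less, at 4.95, 5.88 and 5.46 FPKM against 8.80, 8.14 and 8.17 in WT-labelled cells (log2 -0.55, SE 0.06, adjusted p = 5.53e-06, limma). Its neighbour Hoxd8 was on the opposite side, at 44.8, 43.5 and 41.6 against 33.8, 34.2 and 33.1 FPKM (log2 0.35, SE 0.04), and neither gene's groups overlapped.

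The other members were close between genotypes at day 0. Hoxd3, Hoxd4 and Hoxb4 were higher in KO-labelled cells, by 0.33, 0.41 and 0.44 on the log2 scale. Hoxa2, Hoxa3, Hoxa4 and Hoxa5 were lower, by -0.26, -0.28, -0.32 and -0.34. The 597 tested genes of chromosome 6, which carries HoxA, had a median of -0.40 in this comparison, beside -0.06 for all genes tested, and the part of that in the HoxA values was not tested. Hoxa6 was higher by 0.21 (adjusted p = 0.0392, limma) with overlapping groups. Hoxa7 at 0.10, Hoxb3 at 0.16 and Hoxc13 at 0.14 missed the threshold.

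Several of these small differences gained or lost a call when 1 library was left out. Hoxa6 lost its call without WT-labelled day 0 replicate 1 (adjusted p = 0.0526) or 3 (log2 0.12, adjusted p = 0.180), both by limma. The same held without KO-labelled day 0 replicate 2 (0.152) or 3 (0.0503). It also held with no filter (0.0764) and with voom on the recovered reads (0.0543), all by limma. Hoxa4 lost its call without WT-labelled day 0 replicate 2 (0.0538) or KO-labelled day 0 replicate 1 (0.0624). Hoxa7 passed without WT-labelled day 2 replicate 1 (0.0169) or 2 (0.0395), which enter through the shared spread. Without WT-labelled day 0 replicate 3, the library that stood apart in mt-Rnr1, 9 Hox genes passed in this comparison, 12 over the days in WT-labelled cells and 10 in the interaction. Of all 12961 genes tested 10393, 10179 and 9350 passed in the same comparisons of that fit.

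At day 2 larger differences were measured, in HoxD and elsewhere. Of 13 genes 9 passed, 4 higher and 5 lower in KO-labelled cells, beside 81.4% of all genes tested (40.8% higher, 40.6% lower), and 4 had at least a 2-fold difference on the log2(FPKM + 1) scale, beside 24.3%. Hoxd8 was at 35.4, 33.6 and 32.9 FPKM against 136, 138 and 144 in WT-labelled cells (log2 -2.01, SE 0.04, adjusted p = 1.60e-13, limma). Hoxd4 was at 1.61, 1.37 and 1.13 against 6.16, 5.77 and 6.52 FPKM (log2 -1.60, SE 0.09). Hoxd9 was at 3.36, 3.10 and 2.89 against 11.3, 11.2 and 10.9 FPKM (log2 -1.56, SE 0.06), and Hoxd3 differed by -0.82 (SE 0.09). No tested HoxD gene's groups overlapped, but without the share of all genes tested this sets none of them apart. The day 2 difference of Hoxd3, Hoxd4 and Hoxd8 was opposite in sign to that at day 0. The 1014 tested genes of chromosome 2, which carries HoxD, had a median of -0.22 at day 0 and also at day 2. The median of all genes tested was -0.06 at day 0 and 0.00026 at day 2. The 597 tested genes of chromosome 6 had a median of -0.31 at day 2. The part of these medians in the Hox values was not tested.

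The higher genes at day 2 lay in the other clusters. Hoxa2 was at 4.17, 3.73 and 3.89 FPKM against 1.46, 1.38 and 1.26 in WT-labelled cells (log2 1.06, SE 0.06, adjusted p = 6.47e-09, limma). Hoxc13 was at 1.02, 1.39 and 0.981 against 0.352, 0.278 and 0.217 FPKM (log2 0.73, SE 0.09), and Hoxa5 was higher by 0.59 (SE 0.09). Hoxa4 went the other way, at 2.30, 2.27 and 1.36 FPKM against 4.40, 4.76 and 4.52 (log2 -0.92, SE 0.11). Of the genes on either side of Hoxa4, Hoxa5 was higher and Hoxa3 missed the threshold. Hoxa3 and Hoxa7 overlapped between genotypes, with log2 differences of 0.02 (SE 0.08) and -0.05 (SE 0.05), whose signs turned without 1 library.

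The remaining calls at day 2 were near the threshold. Hoxb3 was higher by 0.28 (adjusted p = 0.0295, limma) with overlapping groups. It lost the call without WT-labelled day 2 replicate 1 (0.126) or 2 (0.0520), or KO-labelled day 2 replicate 1 (0.0906) or 3 (0.109). With no filter the call was lost too (adjusted p = 0.0790, limma). Hoxa6 at 0.19 (adjusted p = 0.0581, limma) passed without WT-labelled day 0 replicate 2 (0.0429) or 3 (0.0249). Hoxb4 at -0.17 (adjusted p = 0.106, limma) passed without KO-labelled day 0 replicate 2 (0.0262) or 3 (0.0382).

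Several low members were read more often in KO-labelled cells. Of the 20 untested genes above 0 somewhere, 8 had all 3 KO-labelled libraries above all 3 WT-labelled ones at day 0: Hoxa9, Hoxb5, Hoxb6, Hoxc6, Hoxc8, Hoxc9, Hoxc10 and Hoxc11. Of all 17955 genes at such levels 15.4% did so. Hoxd10 was among those below, beside 8.48%. At day 2 there were 6 above, Hoxb5, Hoxb6, Hoxb8, Hoxc4 and Hoxc6 among them, beside 14.4%, and Hoxd10 alone below, beside 6.93%. These genes were given no test, and some of the separations rest on single reads. Hoxa9 had 4, 5 and 1 reads in KO-labelled cells at day 0 against 1, 0 and 0. Hoxc10 had 1, 1 and 1 against 0, 0 and 0. Hoxb8 had 6, 2 and 8 at day 2 against 1, 2 and 1. For Hoxa9 and Hoxb8 the nearest libraries of the 2 genotypes had equal reads, so only library depth set them apart.

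The reads behind this were few but fell in neighbouring genes. Hoxb5 had 0, 1 and 0 reads in WT-labelled cells at day 0 and 11, 18 and 13 in KO-labelled cells. Hoxb6 had 5, 6 and 10 against 25, 28 and 20 reads. The 8 HoxC genes other than Hoxc13 had 5, 3 and 6 reads together against 24, 32 and 37, and Hoxc6 led them with 9, 14 and 16 reads in KO-labelled cells. By day 2 these HoxC sums were 4, 2 and 1 in WT-labelled cells and 11, 8 and 9 in KO-labelled cells.

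Non-coding RNAs inside the clusters were listed separately, 21 names of which 18 were in the table and 4 could be tested. Hoxd3os1, an antisense RNA within the RefSeq span of Hoxd3, had 5.20, 4.55 and 6.35 FPKM in WT-labelled cells at day 0 and 12.6, 12.7 and 12 at day 2. In KO-labelled cells it had 12.6, 11.6 and 11.2 and then 9.63, 9.45 and 9.69 FPKM. Its level before the cocktail was therefore higher in KO-labelled cells (log2 1.02, SE 0.08, adjusted p = 2.45e-07, limma), and it did not rise there. Hoxaas2, in the Hoxa3 span, fell in WT-labelled cells from 4.36, 3.25 and 4.16 to 0.778, 0.906 and 1.13 FPKM (log2 -1.34, SE 0.09). It fell less in KO-labelled cells, from 5.53, 5.51 and 5.92 to 3.85, 3.97 and 4.09 FPKM.

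The other two tested non-coding RNAs changed little. Hotairm1, which overlaps another gene, fell in WT-labelled cells by 0.68 on the log2 scale (SE 0.25, adjusted p = 0.0248, limma). Hoxaas3 passed in no comparison. Among the untested, Hotair of the HoxC cluster, described in human cells as an RNA that acts on HoxD chromatin, was at 0.276, 0.185 and 0.471 FPKM in KO-labelled cells at day 0 and at no more than 0.0486 in WT-labelled cells.

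Counting limits touch these neighbours. In RefSeq 20 of the 39 Hox genes, and 9 of the 13 tested, share sequence span with another annotated gene: Hoxa3 spans Hoxa4 to Hoxa6, Hoxb3 spans Hoxb4 and Hoxd3 spans Hoxd4. How reads in shared stretches were counted, and whether strand was used, is not given in the sources used here, so those values and those of antisense RNAs may be split or mixed. Hoxa2, Hoxa7, Hoxc13 and Hoxd9 overlap no annotated gene, and Hoxd8 overlaps only the predicted gene Gm38462.

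**Figure D5:**
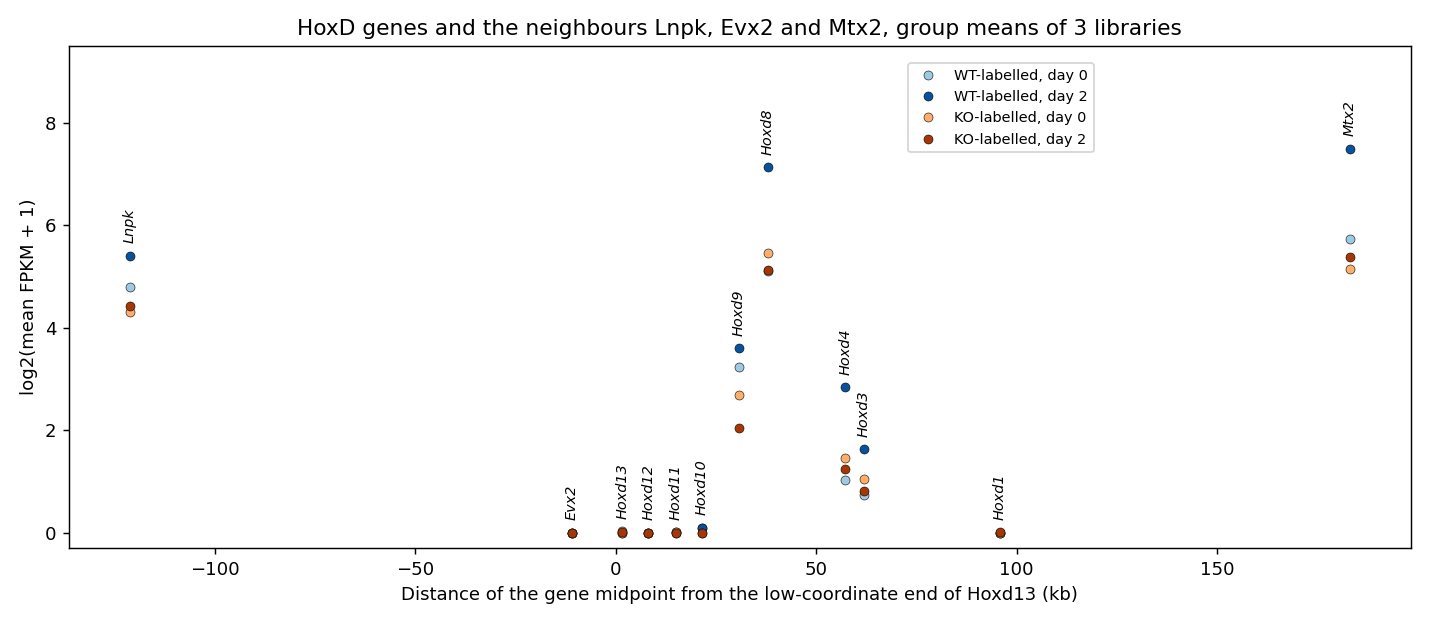
Mean level on a log2(FPKM + 1) scale of the HoxD genes and the neighbours Lnpk, Evx2 and Mtx2 against the distance of their midpoints from one end of Hoxd13, in kb; each point is the mean of 3 libraries. Hoxd10 to Hoxd13, Evx2 and Hoxd1 lie at or near 0, and Lnpk, Hoxd9, Hoxd8, Hoxd4, Hoxd3 and Mtx2 are highest in WT-labelled cells at day 2.

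Some genes beyond HoxD also rose and another fell. Mtx2, a gene of the mitochondrial import machinery 60.67 kb beyond Hoxd1, went from 52.8, 53.4 and 50.9 to 180, 178 and 176 FPKM in WT-labelled cells (log2 1.75, SE 0.03) and from 33.8, 34.5 and 35.3 to 39.3, 41.3 and 41.5 in KO-labelled cells (log2 0.23, SE 0.03). Lnpk, on the other side at 88.767 kb from Hoxd13 and named after its values were seen, rose in WT-labelled cells by 0.61 (SE 0.06) and had 0.11 (SE 0.06) in KO-labelled cells (adjusted p = 0.153, limma). The closest neighbour, Evx2, 6.705 kb from Hoxd13, was at 0 in all 12 libraries, as was Evx1 beside HoxA. The plot of the HoxD region places the silent genes between the rising ones.

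Of 27 names of genes flanking the clusters 17 could be tested, and 10 rose and 6 fell in WT-labelled cells (median log2 0.16, beside -0.11 for all genes tested, of which 34.2% rose and 46.5% fell). Hibadh, an enzyme of valine breakdown 285.35 kb beyond Hoxa13, was at 22.4 ± 0.42 and 124 ± 2.0 FPKM at the 2 days (SD, n = 3). It rose while the nearest expressed HoxA gene, Hoxa7, fell. Nfe2l1 near HoxB rose by 0.72 in WT-labelled cells and fell by 0.43 in KO-labelled ones. Calcoco1 near HoxC was higher in KO-labelled cells at both days, by 1.47 and 0.63, and Hnrnpa1 was lower, by -2.16 and -0.88. Atp5g3, an ATP synthase subunit gene 755.761 kb from Hoxd13, rose by 1.60 in WT-labelled cells and 0.37 in KO-labelled cells. Atf2, a transcription factor gene on the same side at 775.548 kb, also named after its values were seen, fell by 0.52 in WT-labelled and by 0.33 in KO-labelled cells.

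The TALE cofactors, through which Hox proteins bind DNA, were all expressed. Of 12 genes 9 fell and 1 rose in WT-labelled cells (median log2 -1.04), and 7 fell and 3 rose in KO-labelled cells (median -0.23). Of all genes tested 46.5% fell and 34.2% rose in WT-labelled cells (median -0.11), and 38.8% and 33.9% in KO-labelled cells (median -0.03). At day 2, 8 were higher and 1 lower in KO-labelled cells, with a median of 0.38 beside 0.00026 for all genes tested, of which 40.8% were higher and 40.6% lower. Meis2 was at 72.0 ± 1.3 and 34.6 ± 0.35 FPKM in WT-labelled cells at the 2 days and at 109 ± 3.3 and 119 ± 2.3 in KO-labelled cells (SD, n = 3). Meis1, Meis3 and Pbx3 also fell in WT-labelled cells, by 1.68, 1.25 and 1.05 on the log2 scale. Pbxip1, whose protein binds Pbx proteins, was higher in KO-labelled cells at both days, by 1.62 and 2.06.

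Trithorax and Polycomb regulators, which hold Hox genes on or off, went both ways. Of 39 tested, 13 were higher and 20 lower in KO-labelled cells at day 0 (median log2 -0.15, beside -0.06 for all genes, of which 38.3% were higher and 44.2% lower), and 16 and 18 at day 2, beside 40.8% and 40.6%. Ezh2, the main methyltransferase of the Polycomb complex PRC2, was at 55.6 ± 2.1 FPKM in WT-labelled and 9.59 ± 0.25 in KO-labelled cells at day 0 (SD, n = 3; log2 -2.42, SE 0.05). At day 2 it was at 36.7 ± 1.0 and 27.3 ± 1.9 FPKM. Suz12, another PRC2 subunit, was lower by -1.08 and -0.62 at the 2 days, whereas Ezh1, the paralogue of Ezh2, was higher by 1.25 and 1.19. The Polycomb reader gene Cbx6 was higher by 1.76 and 2.50. Dot1l, a histone H3 methyltransferase of active genes, rose by 2.00 in WT-labelled cells and 0.96 in KO-labelled cells, and Psip1 was lower in KO-labelled cells by -0.67 and -0.49.

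Retinoid and Cdx genes, which include known inducers of Hox expression, could be tested in 11 of 25 cases. Of these 8 were higher and 3 lower in KO-labelled cells at day 2 (median log2 0.26), beside 40.8% and 40.6% of all genes tested (median 0.00026). At day 0, 5 were higher and 3 lower, beside 38.3% and 44.2%. Rarg, a retinoic acid receptor, fell from 117 ± 3.4 to 17.7 ± 0.78 FPKM in WT-labelled cells and from 108 ± 2.0 to 65.1 ± 1.1 in KO-labelled cells (SD, n = 3). Rara rose by 1.09 in KO-labelled cells and had 0.04 in WT-labelled cells (interaction 1.04, adjusted p = 3.41e-09, limma). Dhrs3, a retinaldehyde reductase that retinoic acid is known to induce, rose from 2.96 ± 0.58 to 126 ± 3.0 FPKM in WT-labelled cells and from 4.99 ± 0.59 to 16.8 ± 1.3 in KO-labelled cells. Aldh1a1, an enzyme that makes retinoic acid, was higher in KO-labelled cells at both days by 1.67 and 1.76. Gdf11, a ligand that patterns the posterior axis, was higher by 0.61 and 1.99, and Rxrb was higher by 0.21 at day 0 and lower by -0.55 at day 2.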

How the data were processed

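The authors' deposited table gives FPKM per gene for 52505 genes, of which 51633 identifiers matched a symbol. Per the submitters' processing notes TopHat2 2.0.12, Bowtie2 2.2.3, HTSeq 0.6.1, CASAVA and FastQC were among the tools, on mm10, with no role stated. Annotation, strand setting and the formula: not given in the sources used here. A further 24 MeRIP samples of the series were not analysed here. FPKM were analysed as log2(FPKM + 1), which understates changes of low genes, for 12961 genes (mean 1 FPKM or more). Group means of all 12 libraries were fitted with limma 3.58.1 (R 4.3.3, variance trend, 8 residual degrees of freedom). Tests were 2-sided, with Benjamini-Hochberg adjustment over all genes tested and a threshold of 0.05. The fit was tested on simulated data. Whole reads were recovered from the FPKM steps (tolerance 0.005 of a read) for all genes above 0. In each of the 16215 genes above 0 in all libraries the implied length was whole (tolerance 0.05 bases). Replicates differed by a median of 1.38 to 2.09 times counting noise, so none was a repeat deposit. Hox genes above the minimum were named with their values, and per other list the tested non-coding RNAs or up to 6 genes with the smallest adjusted p. A few genes that this would name are not reported here. Members and lists were chosen with earlier results of these data known. Alternatives were a pseudocount of 0.1, no filter, TPM and median-of-ratios scaling, a replicate block, voom on the recovered reads, and leaving out each library. Likeness between patterns was not computed, since 4 group means are too few. Marker lists covered fibroblast, adipocyte, endothelial, immune, epithelial, neuronal and muscle genes.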

Additional observations from a re-analysis of the deposited data

Results flagged for a closer look

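The response to the cocktail differed between KO-labelled and WT-labelled cells in 10 Hox genes, by limma's test of the interaction itself (n = 3 a group, Benjamini-Hochberg adjustment over 12961 genes). Values are the KO-labelled minus the WT-labelled change on the log2(FPKM + 1) scale. In HoxD they were -2.36 for Hoxd8, -2.01 for Hoxd4, -1.16 for Hoxd3 and -1.02 for Hoxd9. In HoxA they were 1.32 for Hoxa2, 0.93 for Hoxa5, 0.31 for Hoxa3 and -0.60 for Hoxa4. Hoxb4 had -0.61 and Hoxc13 had 0.59. Adjusted p ran from 2.38e-12 for Hoxd8 to 0.0224 for Hoxa3. Most genes passed this test (73.8%), so a pass sets no Hox gene apart.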

How the results depend on the processing

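Of 65 tests (13 genes in 5 comparisons) 47 kept their direction and their side of the threshold in all 18 alternatives. Without a filter, 33 Hox genes could be tested, and 19 passed between genotypes at day 0 (12 higher, 7 lower), beside 44.8% of all 30916 genes in that fit, and 16 from day 0 to day 2 in KO-labelled cells, beside 37.5%. With each library left out in turn the counts of Hox genes called ran from 9 to 11 and from 8 to 10 between genotypes at day 0 and day 2, from 12 to 13 and from 8 to 10 between days in WT-labelled and KO-labelled cells, and from 9 to 11 for the interaction. Of all 12961 genes 10388 to 10737 and 10275 to 10540 were called between genotypes at day 0 and day 2 in these fits. Between days 10161 to 10483 were called in WT-labelled and 9034 to 9408 in KO-labelled cells, and for the interaction 9318 to 9401. Signs turned in 5 tests of Hox genes, none of them called. With single libraries left out, the day 2 difference between genotypes ran from -0.050 to 0.079 for Hoxa3 and from -0.092 to 0.0073 for Hoxa7. The day effect in KO-labelled cells ran from -0.19 to 0.039 for Hoxb4 and from -0.17 to 0.066 for Hoxa4, and the interaction of Hoxa6 from -0.090 to 0.072. The cause was not tested.

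TPM scaling moved the median of all genes between genotypes at day 0 from -0.06 to 0.05, and the calls over all genes from 4958 higher and 5726 lower to 5930 and 5158. The Hox calls there went from 5 and 5 to 6 and 3: Hoxa3 and Hoxa4 lost theirs (adjusted p = 0.0751 for Hoxa4) and Hoxa7 gained one (0.00193). Under that scaling Hoxa3 also lost the interaction and Hoxa7 gained it. No sign of a Hox gene turned under TPM or median-of-ratios scaling. Replicate numbers did not pair the libraries: deviations of same-numbered libraries correlated by -0.055 to 0.087 across genes, and 6 of 12 libraries were closest to one of their own number. With the replicate number as a block 10, 10, 12, 8 and 10 Hox genes passed in the 5 comparisons. Beside them 10652, 10515, 10411, 9386 and 9486 of all 12961 genes passed. The order is genotypes at day 0, at day 2, days in WT-labelled and in KO-labelled cells, and interaction. In these fits Hoxa6 passed at day 2 (adjusted p = 0.0442, limma) and Hoxb3 did not pass in WT-labelled cells (0.0533).

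Depth limits most of the 26 untested genes, all of which fell below the minimum mean of 1 FPKM. Of the 20 above 0 somewhere, 15 had fewer than 50 reads in all 12 libraries together. Some had more, such as Hoxb2 with 377 and Hoxb6 with 139, and were left out of the main fit by the minimum. The test of 3 libraries a group shares 1 estimate of spread, and a group left with 2 libraries is assumed to vary like the others.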

Other observations

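Position-related transcription factors outside the Hox clusters changed in both directions, and 21 of 36 could be tested. In WT-labelled cells 17 fell and 3 rose over the 2 days (median log2 -0.68), while in KO-labelled cells 10 fell and 9 rose (median 0.0037). Of all genes tested 46.5% fell and 34.2% rose in WT-labelled cells (median -0.11), and 38.8% and 33.9% in KO-labelled cells (median -0.03). Prrx1, a homeobox gene of limb and skull mesenchyme, fell from 133 ± 2.4 to 17.5 ± 0.30 FPKM in WT-labelled cells (SD, n = 3) and from 113 ± 0.72 to 94.9 ± 1.2 in KO-labelled cells. Its relative Prrx2 fell from 121 ± 4.0 to 48.8 ± 1.5 FPKM and rose from 181 ± 7.4 to 377 ± 16 in KO-labelled cells. The nuclear receptor gene Nr2f2 fell by 1.90 on the log2 scale in WT-labelled cells and rose by 0.97 in KO-labelled cells, and Nr2f1 had -0.52 and 0.54. Dlx1, on chromosome 2 like HoxD, was at 9.56 ± 0.24 FPKM in WT-labelled and 1.04 ± 0.10 in KO-labelled cells at day 0. At day 2 it was at 0.808 ± 0.086 and 2.57 ± 0.11 FPKM.

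Halr1, a long non-coding RNA adjacent to HoxA, was read in all 3 WT-labelled libraries at day 0, at 0.426, 0.334 and 0.323 FPKM. It was at 0, 0 and 0.111 FPKM in them at day 2 and at 0 in all 6 KO-labelled libraries.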
